A study of Mus musculus with 8 samples.

Results

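Caspases, proteins of the Bcl2 family and other regulators of apoptosis were followed in epididymal fat, the large visceral fat pad of male mice, after feeding of conjugated linoleic acid (CLA). The list held 38 genes, chosen by name, and a gene counted as measured where at least 1 array probe carried its symbol alone. By that rule 36 genes were measured, with 41 probes, out of 16504 genes and 22393 probes in all. Bax and Ripk1 had no such probe and are not analysed here. Per the labels, 8 arrays of 2 channels each were made, 4 at day 5 and 4 at day 14 of a feeding trial in polygenic obese mice. On each array, RNA from CLA-fed animals was hybridised together with RNA from controls that ate linoleic acid (LA), and every RNA was a pool of 4 or 5 mice. Within a day, the CLA sample was labelled with Cy5 on arrays 1 and 2 and with Cy3 on the other two. Sources used here give no dose, CLA isomer or name of the mouse line, and pools leave the spread between single mice unseen. Whether any pool was hybridised more than once is not stated, so the spread behind the p-values is that among arrays and may be technical. The keywords of the study name apoptosis beside adiposity and lipid metabolism.

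Apoptosis is a programmed death in which caspases, proteases made as inactive precursors, cut cell proteins. In the mitochondrial pathway, BH3-only proteins sense damage and free the pore-forming proteins Bax and Bak1 from anti-apoptotic relatives such as Bcl2, after which cytochrome c leaves the mitochondria and assembles with Apaf1 into the platform that activates caspase-9. In the death receptor pathway, ligands such as Fasl bind Fas, and the adaptor Fadd recruits caspase-8. Death of adipocytes is known from mice fed CLA, whose fat pads shrink, but much of the control of caspases lies in cleavage and binding of the proteins, which transcript ratios do not measure.

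All values below are log2 ratios of CLA over LA, a direction that is likely but that no source states. The deposited numbers were treated as log10 and converted with a factor of 3.322. Were the deposited scale log2, all sizes and errors given here would be overstated by this factor. The sign was taken as already turned for the dye swap. Its basis is a set of 489 probes, taken once arrays 3 and 4 were turned. Their mean was then larger than 2 (log2, either sign) at day 5 and at day 14. Of them, 488 followed the dye in sign on all 8 arrays, which the selection nearly fixed. A diet effect in ratios not yet turned would give the same pattern, so this count cannot settle the reading. As deposited, 1 probe had a mean of that size on both days. Ucp1, the uncoupling protein known to rise in white fat of mice fed CLA, stood between 3.21 and 3.71 on the day 14 arrays as deposited. Had every ratio been LA over CLA, all signs here would be reversed.

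Day 5 array 3 stood apart from the other arrays. The 7 testis genes of the epididymis and testis marker list, among them the protamines Prm1 and Prm2 of developing sperm, lay between 3.60 and 6.78 there and between −1.34 and 0.71 on the other day 5 arrays. The 5 epididymis genes of the list lay between 2.18 and 2.83 on day 5 array 1. The residual spread was 0.56 log2 units (root mean square) on day 5 array 3 and 0.20 to 0.24 on the day 14 arrays. Among the 36 apoptosis genes, array 3 was the one farthest from the median of the day 5 arrays for 21 genes. At day 14 array 3 was also the farthest for 18 of them, so that count is not particular to day 5. Day 5 ratios are given with and without day 5 array 3. Leaving it out changed the sign of the fitted day 5 ratio for 9 of the 36 genes. The files hold ratios without intensities, so neither the level of any gene nor the labelled tissue could be checked against its markers.

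No apoptosis gene passed the threshold in the fit of all 8 arrays. A limma model with separate day means and a common dye effect called 0 of 36 genes at day 14, 0 at day 5 and 0 for the difference between the days (adjusted p under 0.05 over all genes). The background was also 0% of the 16504 genes in each comparison, and the smallest adjusted p among the 36 was 0.297 at day 14 and 0.284 at day 5. At an unadjusted p under 0.05, 6 genes stood out at day 14, 4 above 0 and 2 below, against 9.77% of all genes (4.24% above and 5.53% below). These were Casp9, Casp1, Bbc3 and Xiap above 0 and Bcl2l2 and Bok below. At day 5 there were 3, Bcl2l1 above 0 and Bcl2l10 and Bok below, against 13.4% of all genes (4.19% above and 9.17% below). For the difference there were 2, Xiap above 0 and Bcl2l1 below, against 4.24% (2.81% above and 1.44% below). Without day 5 array 3 the 2 were Bad and Bcl2l2 instead, against 5.83% of all genes. The day 5 genes were then 5, Bad, Bcl2, Bcl2l1, Bcl2l10 and Bok, against 13.8%. With all 8 arrays the day 5 count of the 36 genes was below the background share and the day 14 count above it. Without day 5 array 3 the day 5 count was near that share. These counts are small.

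At day 14 the list as a whole had no direction. Its median ratio was −0.001, against 0.001 over all genes, and 18 genes lay above 0 and 18 below, where 50.3% of all genes lay above. At day 5 the median was −0.085, against −0.0016 over all genes, with 13 genes above 0, where 49.7% of all genes lay above. The 95% interval of the ratio lay within a 1.5-fold change either way for 29 of the 36 genes at day 14 and 27 at day 5 (limma, not adjusted for the number of genes). The median standard error was 0.126 on both days. The number of arrays, 4 per day, limits this precision.

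**Figure D1:**
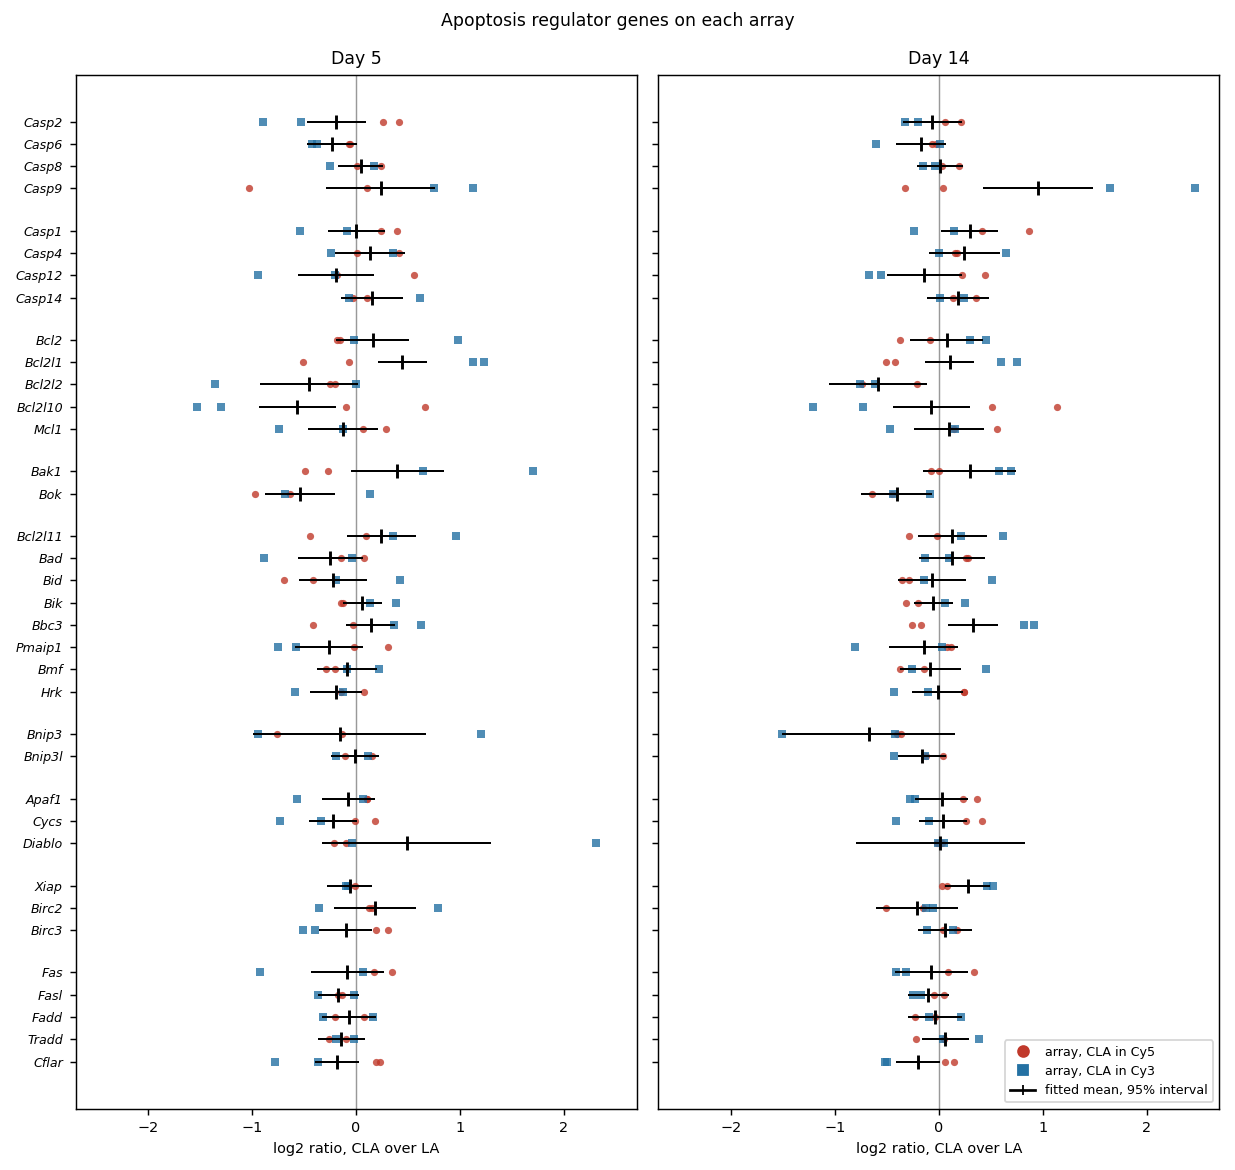
Log2 ratio of CLA over LA (x axis) of the 36 measured apoptosis genes (y axis, grouped by role) on each of the 4 day 5 arrays (left) and 4 day 14 arrays (right). Red circles are arrays with CLA in Cy5 and blue squares arrays with CLA in Cy3; the black bar and line are the fitted mean and its 95% interval. Diablo at 2.31 on day 5 array 3 and Casp9 at 1.65 and 2.46 on day 14 arrays 3 and 4 lie farthest to the right for their days.

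A fit of all 8 arrays weighted by array quality did call apoptosis genes at day 14. It gave the day 5 arrays 3 and 4 the lowest weights, 0.179 and 0.471, and the day 14 arrays weights of 1.04 to 2.00. Day 5 array 1 had 0.635 and day 5 array 2 the highest weight of all, 3.13. In this weighted fit limma called 4 of 36 genes, Casp9 and Bbc3 higher and Bcl2l2 and Bok lower, against 3.54% of all genes (1.32% higher and 2.22% lower). The day 14 arrays fitted alone called 0 of the 36 genes, against 1.58% of all genes. The smallest adjusted p there was 0.054, for Casp9. Without day 14 array 4 the weighted fit called 0 of the 36, against 177 of all 16504 genes. Without day 14 array 3 it called 8, against 1497 of all genes. These 4 genes are described first within their roles. Their promoters are shown because they are the genes called in that fit, 2 in each direction. Each sequence is the 250 bases before the transcription start on mouse build GRCm38.p6 from RefSeq, on the + strand, 5′ to 3′. Capitals mark the GC box GGGCGG on either strand, the binding sequence of Sp1-type factors.
Casp9, chr4:141793362-141793611: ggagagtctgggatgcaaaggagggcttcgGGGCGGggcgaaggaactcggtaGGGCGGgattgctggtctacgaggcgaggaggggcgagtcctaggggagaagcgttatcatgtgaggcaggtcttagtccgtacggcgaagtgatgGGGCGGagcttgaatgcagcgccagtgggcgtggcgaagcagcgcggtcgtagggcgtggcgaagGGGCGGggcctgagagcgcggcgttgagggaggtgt
Bbc3, chr7:16309333-16309582: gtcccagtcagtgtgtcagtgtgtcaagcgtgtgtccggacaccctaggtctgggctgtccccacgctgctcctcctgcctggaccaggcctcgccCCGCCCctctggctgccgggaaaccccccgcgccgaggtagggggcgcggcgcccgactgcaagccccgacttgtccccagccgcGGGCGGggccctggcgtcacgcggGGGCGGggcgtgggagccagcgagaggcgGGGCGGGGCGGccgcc
Bcl2l2, chr14:54883175-54883424: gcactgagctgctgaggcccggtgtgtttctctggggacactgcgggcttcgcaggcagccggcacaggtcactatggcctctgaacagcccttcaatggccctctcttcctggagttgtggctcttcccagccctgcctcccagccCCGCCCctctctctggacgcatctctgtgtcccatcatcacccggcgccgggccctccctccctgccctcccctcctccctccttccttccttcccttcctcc
Bok, chr1:93685325-93685574: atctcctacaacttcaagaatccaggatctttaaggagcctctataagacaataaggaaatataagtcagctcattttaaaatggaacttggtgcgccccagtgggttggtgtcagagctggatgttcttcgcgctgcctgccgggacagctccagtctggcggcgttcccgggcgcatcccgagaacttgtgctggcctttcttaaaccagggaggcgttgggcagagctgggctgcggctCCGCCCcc
The Casp9 window holds 4 GC boxes, the window of the first listed Bbc3 start 5, and those of Bcl2l2 and Bok 1 each. Of all 32851 mouse promoter windows of that length, 32.7% hold at least 1. The p53 half-site, searched on both strands, is in none of the 4 windows and in 7.13% of all. These matches describe the sequence only.

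Casp9 encodes the initiator caspase of the mitochondrial pathway and had the highest fitted ratio of the 36 genes at day 14. Its log2 ratio was −0.32 on array 1, 0.035 on array 2, 1.65 on array 3 and 2.46 on array 4. The arrays with CLA in Cy3 were thus high and those with CLA in Cy5 near or below 0, a dye difference of −2.20. The fitted mean was 0.96 ± 0.23 (SE, n = 4 arrays), or 1.94-fold (limma, unadjusted p = 0.0033, adjusted p = 0.297). In the weighted fit it was 1.02 ± 0.17 (adjusted p = 0.027). At day 5 the arrays read 0.10, −1.03, 0.75 and 1.13, with a mean of 0.24 ± 0.23, or 0.39 ± 0.25 without array 3, and the dye difference was −1.40. Both days thus had the same split between the dyes. The day 14 value exceeded that of day 5 by 0.72 ± 0.32 (limma, unadjusted p = 0.057).

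The other caspases of the cell death pathways lay closer to 0. Casp8, the initiator of the death receptor pathway, read 0.032, 0.20, −0.039 and −0.15 on the day 14 arrays and 0.24, 0.012, −0.25 and 0.17 on the day 5 arrays. Its mean was 0.009 at day 14, with a 95% interval from −0.21 to 0.23, and 0.044 at day 5, from −0.18 to 0.26 (0.12 without array 3). Casp2, an initiator linked to DNA damage, stood at −0.063 ± 0.12 at day 14 and −0.19 ± 0.12 at day 5 (−0.20 without array 3). Casp6, an executioner caspase, stood at −0.17 ± 0.10 and −0.23 ± 0.10 (−0.21 without array 3), and all 4 of its day 5 arrays were below 0.

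Apaf1, the scaffold that activates caspase-9, read 0.37, 0.24, −0.23 and −0.28 at day 14, a mean of 0.025 ± 0.11. Its day 5 arrays read 0.10, 0.10, −0.57 and 0.063, and the mean of −0.074 ± 0.11 became 0.032 ± 0.11 without array 3. Its pair of probes differed, with a mean of 0.17 for one and −0.12 for the other at day 14, and neither was called. Cycs, which encodes cytochrome c, stood at 0.041 ± 0.10 at day 14 and −0.22 ± 0.10 at day 5 (−0.14 without array 3). Diablo encodes a mitochondrial protein that blocks inhibitors of apoptosis. On the day 14 arrays it lay between −0.02 and 0.05, whereas it read −0.21, −0.093, 2.31 and −0.043 at day 5. The single high reading was on the array with the testis transcripts, whose part in it was not tested. Without that array its day 5 mean was −0.11 ± 0.08, against 0.49 ± 0.35 with it.

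Among BH3-only genes, Bbc3 (Puma, a target of p53) had the highest ratio at day 14. It read −0.26, −0.17, 0.92 and 0.82, with both arrays of CLA in Cy3 high and both of CLA in Cy5 below 0. The mean was 0.33 ± 0.10, or 1.25-fold (limma, unadjusted p = 0.014, adjusted p = 0.382), and 0.32 ± 0.07 in the weighted fit (adjusted p = 0.048). At day 5 it read −0.026, −0.41, 0.37 and 0.63, with a mean of 0.14 ± 0.10, or 0.23 ± 0.10 without array 3. The other 7 BH3-only genes lay between −0.15 (Pmaip1, Noxa, another p53 target) and 0.13 (Bcl2l11, Bim) at day 14. None of them had an unadjusted p under 0.05 on either day. Bad, which growth factor signals hold inactive, stood at 0.13 ± 0.14 at day 14 and −0.25 ± 0.14 at day 5, or −0.40 ± 0.12 without day 5 array 3 (limma, unadjusted p = 0.011, adjusted p = 0.33). Bid, which carries the death receptor signal to the mitochondria, stood at −0.070 ± 0.14 and −0.22 ± 0.14 (−0.11 without array 3). Bik, Bmf and Hrk lay between −0.082 and −0.011 at day 14 and between −0.19 and 0.061 at day 5, or −0.145 and 0.11 without array 3.

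Of the anti-apoptotic genes, Bcl2l2 (Bcl-w) was below 0 on all 4 day 14 arrays, with −0.21, −0.74, −0.76 and −0.62. Its mean was −0.58 ± 0.20, with a 95% interval from −1.055 to −0.11 (limma, unadjusted p = 0.022, adjusted p = 0.42), and −0.57 ± 0.11 in the weighted fit (adjusted p = 0.037). At day 5 it read −0.25, −0.20, −1.36 and 0.0038, a mean of −0.45 ± 0.20, or −0.16 ± 0.13 without array 3. Bcl2l1 (Bcl-x) went with the dye on both days. At day 5 it read −0.066, −0.51, 1.24 and 1.13, and at day 14 it read −0.51, −0.43, 0.75 and 0.60. The mean was 0.45 ± 0.10 at day 5, or 1.36-fold (limma, unadjusted p = 0.0027, adjusted p = 0.284), 0.39 ± 0.11 without array 3, and 0.10 ± 0.10 at day 14. In the weighted fit the day 5 ratio of Bcl2l1 was 0.23 (limma, unadjusted p = 0.069).

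Bcl2l10, a relative best known from oocytes, had the opposite split between the dyes. It read −0.092, 0.66, −1.53 and −1.30 at day 5 and 1.14, 0.51, −1.21 and −0.73 at day 14. Its means were −0.57 ± 0.16 at day 5 (limma, unadjusted p = 0.0081, adjusted p = 0.284), −0.53 ± 0.19 without array 3, and −0.073 ± 0.16 at day 14. In the weighted fit its day 5 ratio was −0.37 (limma, unadjusted p = 0.076). Bcl2, the founding member, read −0.15, −0.18, −0.021 and 0.99 at day 5 and −0.38, −0.083, 0.45 and 0.30 at day 14. Its means were 0.16 ± 0.15 and 0.074 ± 0.15, and without array 3 that of day 5 was 0.36 ± 0.12 (limma, unadjusted p = 0.019, adjusted p = 0.33). Mcl1, a short-lived survival protein, read 0.070, 0.29, −0.74 and −0.13 at day 5 and 0.56, 0.15, 0.15 and −0.47 at day 14. Its means were −0.13 ± 0.14 and 0.095 ± 0.14, both 95% intervals held 0, and without array 3 the day 5 mean was 0.0058 ± 0.15.

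Bok, a pore-forming relative of Bax, was the single gene of the list with an unadjusted p under 0.05 on both days. It read −0.65, −0.45, −0.082 and −0.45 at day 14, all below 0, and −0.98, −0.64, −0.68 and 0.14 at day 5. The means were −0.41 ± 0.15 at day 14 (limma, unadjusted p = 0.025, adjusted p = 0.432) and −0.54 ± 0.15 at day 5 (0.0066 and 0.284), or 1.33-fold and 1.45-fold higher in LA. In the weighted fit the day 14 mean was −0.43 ± 0.09 (adjusted p = 0.048), and without array 3 that of day 5 was −0.40 ± 0.14. Bak1, whose protein forms the mitochondrial pore, read −0.00077, −0.081, 0.69 and 0.57 at day 14 and −0.27, −0.49, 1.70 and 0.64 at day 5. The means were 0.30 ± 0.19 and 0.40 ± 0.19, and the day 5 mean was 0.097 ± 0.10 without array 3.

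**Figure D2:**
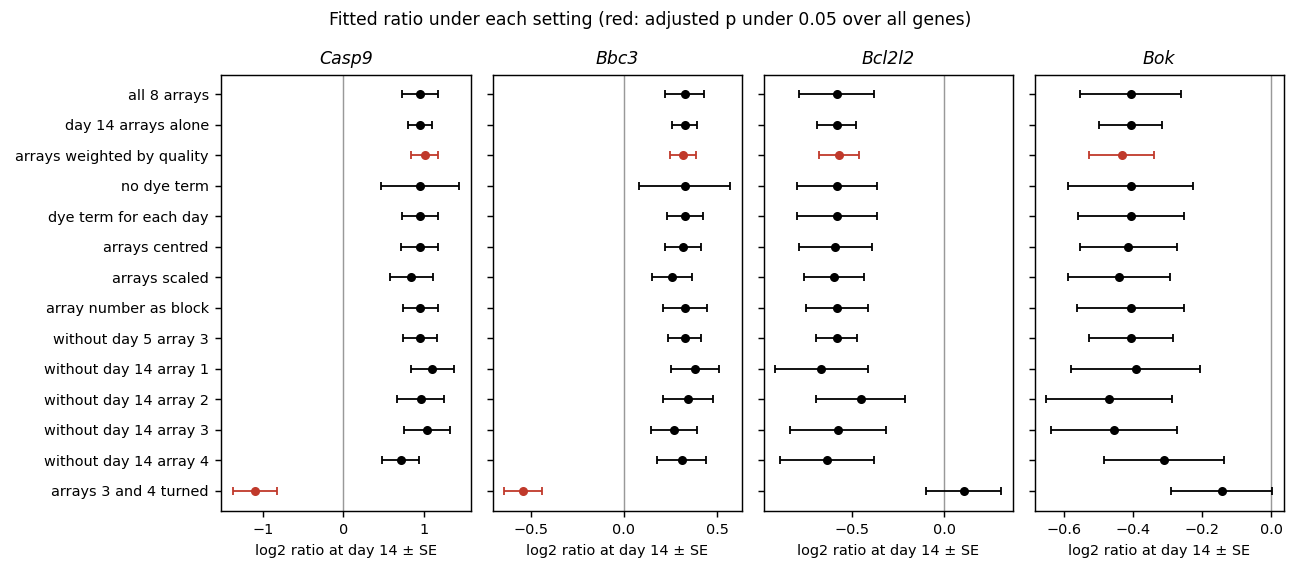
Fitted log2 ratio at day 14 with its SE (x axis, a separate scale for each gene) of Casp9, Bbc3, Bcl2l2 and Bok under 14 settings of the fit (y axis). Red marks an adjusted p under 0.05 over all genes, reached with arrays weighted by quality for all 4 genes and, in the other direction, with arrays 3 and 4 turned for Casp9 and Bbc3.

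Of the inhibitor of apoptosis proteins, which bind caspases or signalling complexes, Xiap had all 4 day 14 arrays above 0 and all 4 day 5 arrays below. It read 0.081, 0.034, 0.52 and 0.46 at day 14 and −0.010, −0.066, −0.093 and −0.076 at day 5. The means were 0.28 ± 0.09 (limma, unadjusted p = 0.018, adjusted p = 0.403) and −0.061 ± 0.09 (−0.0097 without array 3), and the difference was 0.34 ± 0.13 (unadjusted p = 0.034, adjusted p = 0.892). That difference was 0.29 without day 5 array 3 (limma, unadjusted p = 0.066). The 2 probes did not share the pattern: one averaged 0.46 and the other 0.088 at day 14, and on day 5 array 3 they read 0.53 and −0.71. Birc2 stood at −0.21 ± 0.17 at day 14, with all 4 arrays below 0, and at 0.18 ± 0.17 at day 5, which became −0.033 ± 0.14 without array 3, where it read 0.79. These values average 2 probes, one of which read 0.13 on day 14 array 3. At day 5 the probes averaged 0.037 and 0.32. Birc3 stood at 0.059 ± 0.11 and −0.10 ± 0.11 (−0.064 without array 3).

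When all 8 arrays were fitted together, no gene of the death receptor pathway had an unadjusted p under 0.05. Fas, the receptor, read 0.34, 0.089, −0.32 and −0.41 at day 14 and 0.17, 0.35, −0.92 and 0.072 at day 5. The means were −0.074 ± 0.15 and −0.083 ± 0.15, and the day 5 mean was 0.13 ± 0.10 without array 3. Its ligand Fasl stood at −0.10 ± 0.08 and −0.17 ± 0.08 (−0.12 without array 3), with all 4 day 5 arrays below 0. In the weighted fit its day 5 ratio was −0.21 (limma, unadjusted p = 0.031). The adaptors Fadd and Tradd stood at −0.039 ± 0.11 and 0.063 ± 0.10 at day 14 and at −0.072 ± 0.11 and −0.14 ± 0.10 at day 5 (0.046 and −0.084 without array 3). Cflar (c-FLIP), which restrains caspase-8, stood at −0.20 ± 0.09 at day 14 (limma, unadjusted p = 0.056) and −0.18 ± 0.09 at day 5 (−0.084 without array 3). Its day 14 ratio had an unadjusted p of 0.0065 in the weighted fit and 0.027 with the day 14 arrays alone (limma), and was called in neither. The Cflar ratio averages 2 probes that differed. Fitted by probe, one stood at −0.35 at day 5 and −0.27 at day 14 (limma, unadjusted p = 0.010 and 0.033). The other stood at −0.020 and −0.14.

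Casp1, the caspase that matures interleukin-1β, read 0.87, 0.42, 0.14 and −0.24 at day 14, and 3 of the 4 arrays were above 0. The mean was 0.30 ± 0.12 (limma, unadjusted p = 0.039, adjusted p = 0.479). At day 5 it read 0.24, 0.40, −0.54 and −0.086, with a mean of 0.003 and a 95% interval from −0.27 to 0.28 (0.089 without array 3). Casp4, which senses bacterial lipopolysaccharide, stood at 0.24 ± 0.15 at day 14 and 0.14 ± 0.15 at day 5 (0.29 without array 3). Casp12, tied to the endoplasmic reticulum in mice, stood at −0.14 ± 0.16 and −0.19 ± 0.16 (−0.065 without array 3). Casp14, a caspase of the epidermis, stood at 0.18 ± 0.13 and 0.16 ± 0.13, and the day 5 ratio was −0.015 without array 3. Casp4 and Casp14 were above 0 on all 4 day 14 arrays. In all, 3 genes were above 0 on all 4 day 14 arrays and 4 below, against 6.3% and 7.06% of all genes, and at day 5 none was above and 4 were below, against 2.25% and 3.24%.

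Bnip3 and Bnip3l encode mitochondrial proteins that mark the organelle for autophagy and are induced by hypoxia. Bnip3 was below 0 on all 4 day 14 arrays, with −0.37, −0.40, −1.51 and −0.42. The mean of −0.675 ± 0.36 was the lowest of the 36 genes as deposited (limma, unadjusted p = 0.098, adjusted p = 0.612), and was 0.29 with arrays 3 and 4 turned. At day 5 it spanned −0.94 to 1.20, with a mean of −0.16 ± 0.36, or 0.16 ± 0.38 without array 3. With the day 14 arrays alone and without array 4, Bnip3 was the single gene of the list called, against 156 of all 16504 genes. Without array 3 the single gene was Casp9, against 68 of all genes. Bnip3l stood at −0.16 ± 0.10 at day 14 and −0.009 ± 0.10 at day 5 (0.034 without array 3).

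The split between the dyes was wider than the diet ratio for many genes. The dye difference, arrays 1 and 2 minus arrays 3 and 4, had a median size of 0.46 over the 36 genes at day 14, against 0.41 over all genes. The fitted diet ratio had a median size of 0.12 and 0.10. These measures are unlike. The dye difference sets means of 2 arrays against each other, whereas the ratio is a mean of 4, so spread among arrays alone makes the first larger. The sign followed the dye on all 4 day 14 arrays for 15 of the 36 genes, against 46.2% of all genes, and on all 4 day 5 arrays for 9, against 32.8%. With arrays 3 and 4 turned, 4 of the 36 genes were called at day 14, against 12.7% of all genes, and 6 at day 5, against 13% (limma). The 4 were Bcl2l10 at 0.90 and Casp9 at −1.10, Bcl2l1 at −0.57 and Bbc3 at −0.54. Casp9 and Bbc3 then stood lower instead of higher. Bcl2l2 stood at 0.11 and Xiap at −0.22, also the other way, and Bok at −0.14 the same way.

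**Figure D3:**
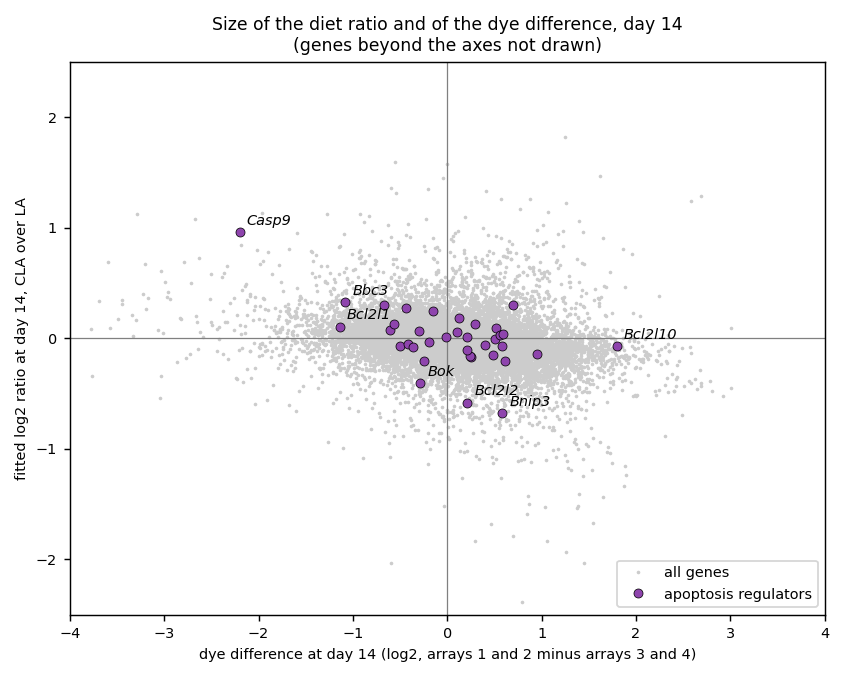
Fitted log2 ratio of CLA over LA at day 14 (y axis) against the dye difference of the day 14 arrays (x axis, log2, arrays 1 and 2 minus arrays 3 and 4), with all genes in grey and the 36 apoptosis genes in purple. Casp9 lies at a dye difference of −2.20 and Bcl2l10 at 1.80, whereas Bcl2l2 at 0.21, Bok at −0.29 and Bnip3 at 0.58 lie nearer the middle.

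Other genes of cell death came from 9 fixed lists, and in the fit of all 8 arrays limma called 0 of their members on either day. Counts at an unadjusted p under 0.05 below stand against 4.24% of all genes above 0 and 5.53% below at day 14. In the list of death receptors and adaptors, 1 of 18 measured genes lay above 0 and 1 below at an unadjusted p under 0.05 at day 14. Tnfrsf12a, the receptor of the cytokine TWEAK, read 0.085, 0.048, 1.67 and 1.36, a mean of 0.79 ± 0.10 (adjusted p = 0.179), and was called with the day 14 arrays alone (0.030) and in the weighted fit (0.0079). Casp8ap2, which binds caspase-8, stood at −0.21 ± 0.07. Of 11 genes of endoplasmic reticulum stress and stress kinases, 8 had a fitted day 14 ratio above 0 and 3 below. At an unadjusted p under 0.05 (limma), 3 lay above 0 and 1 below. Chac1, a glutathione-degrading enzyme of the stress response, was high on all 4 day 14 arrays, between 0.60 and 1.62, a mean of 1.26 ± 0.21. It was called in both of the other fits (adjusted p = 0.031 and 0.016). Ddit3 (Chop), a stress transcription factor that promotes apoptosis, stood at 0.20 ± 0.08, and the stress sensor Ern1 at 0.24 ± 0.08. Ddit4, an inhibitor of mTOR signalling, was below 0 on all 4 arrays at −0.49 ± 0.16 and was called lower in the weighted fit (adjusted p = 0.039).

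Of 18 measured p53 pathway genes, 9 had a fitted day 14 ratio above 0 and 9 below. At an unadjusted p under 0.05 (limma), 2 lay above 0, Gadd45b at 0.56 ± 0.14 and Mdm2, which degrades p53, at 0.25 ± 0.09. Ei24 lay below at −0.26 ± 0.10 with such a p. None of the 3 was called in any of the 3 fits. Of 11 genes of pyroptosis and necroptosis, the inflammasome sensor Nlrc4 stood at 0.52 ± 0.11 and the necroptosis kinase Ripk3 at 0.20 ± 0.08, both above 0 on all 4 day 14 arrays, and Nlrc4 was called in the weighted fit (adjusted p = 0.021). Of 16 genes for clearing dying cells, 12 had a fitted day 14 ratio above 0 and 4 below. At an unadjusted p under 0.05 (limma), 3 lay above 0. They were Trem2 at 1.00 ± 0.22, and the scavenger receptors Stab1 at 0.43 ± 0.14 and Stab2 at 0.26 ± 0.10. Trem2 and Stab1 were called in the weighted fit (adjusted p = 0.045 and 0.047). Trem2 is also in the macrophage list. At an unadjusted p under 0.05 (limma), the execution list had 1 of 13 below 0 (the actin-severing protein Gsn, −0.96 ± 0.40). The other inhibitors of apoptosis had 1 of 4 below 0 at that p (Birc6, −0.23 ± 0.09). The other Bcl2 relatives had 0 of 19 and the Cide family 0 of 3 with an unadjusted p under 0.05. Cidec, a lipid droplet protein and named after its values were seen, was called lower with the day 14 arrays alone.

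Cell type markers moved at the same times. At day 14 all 13 measured macrophage markers lay above 0, 11 of them with an unadjusted p under 0.05 (4.24% of all genes), and the list median ran from 0.19 to 1.21 over the 4 arrays. The adipocyte list had 7 of 9 genes below 0, with medians from −1.10 to −0.30, and all 10 endothelial markers lay below 0, with medians from −0.73 to −0.14. All 7 mesothelial markers lay below 0 too, with medians from −0.68 to −0.42. T and B cell markers had medians from −0.07 to 0.29, neutrophil and mast cell markers from −0.01 to 0.31, fibroblast markers from −0.42 to 0.66 and epididymis and testis markers from −0.44 to 0.38. With an unadjusted p under 0.05 (limma), 3 of 10 neutrophil and mast cell markers lay above 0 (Csf3r, Cpa3 and Cma1) and 1 below (Kit). The weighted fit called these 4, and 2 macrophage markers. Of 7 fibroblast markers, 3 lay above 0 with such a p (Col1a1, Col1a2 and Lum). Below 0 with such a p were 3 adipocyte, 2 endothelial and 3 mesothelial markers. At day 5 the adipocyte medians ran from −1.65 on array 3 to 0.68 on array 4, and those of the endothelial list from −0.79 on array 1 to 0.77 on array 4. Turning arrays 3 and 4 took the median fitted day 14 ratio from −0.59 to 0.48 for the adipocyte list and from −0.62 to 0.034 for the mesothelial list. It went from 0.51 to 0.28 for macrophage markers and from −0.31 to −0.28 for endothelial markers. The part of these cells in the apoptosis gene ratios was not tested. In whole fat tissue, fewer cells of a type and less RNA per cell cannot be told apart.

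**Figure D4:**
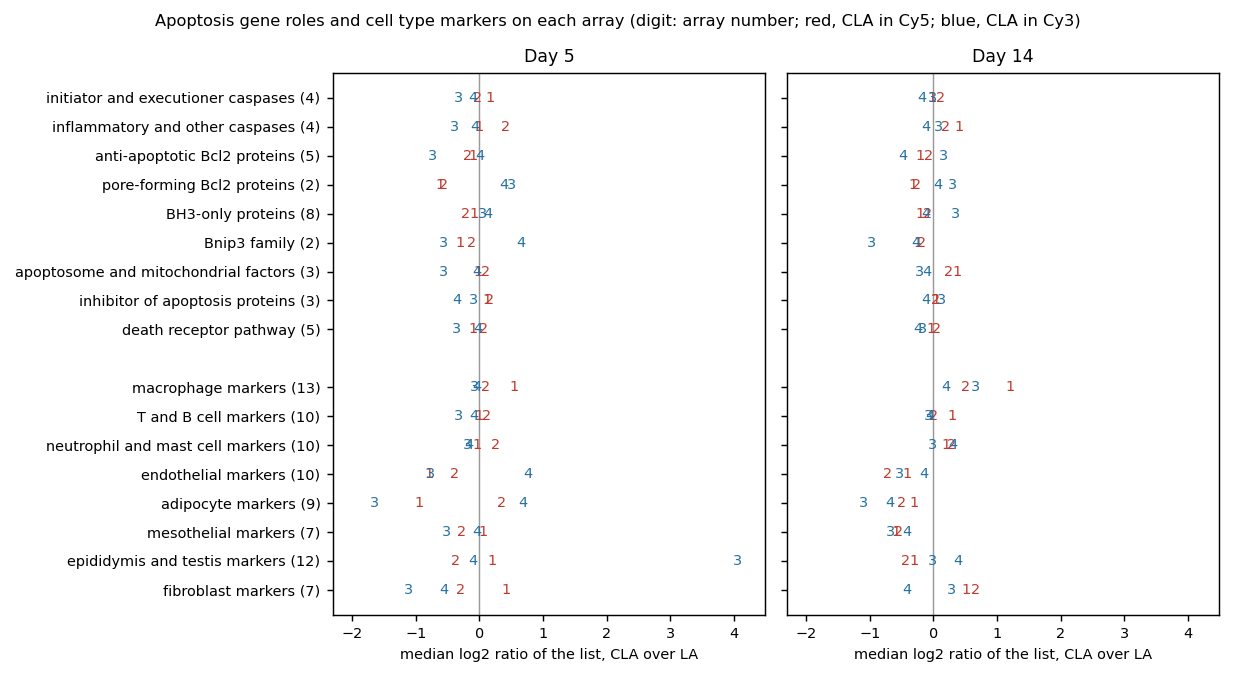
Median log2 ratio of CLA over LA (x axis) of the apoptosis genes by role and of the cell type marker lists (y axis, measured genes in brackets) on each array at day 5 (left) and day 14 (right). Digits are array numbers, red with CLA in Cy5 and blue with CLA in Cy3. Epididymis and testis markers stand at 4.06 on day 5 array 3, and macrophage markers lie above 0 on all 4 day 14 arrays.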

How the data were processed

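The deposited table holds 1 value per probe and array, taken as log10 ratios of the 2 channels that the authors deposited. No source used here states their base, direction, normalization, background treatment or filters. Deposited column medians were −0.0033, −0.0010, −0.018 and 0.0026 at day 5 and −0.0049, −0.0022, 0.011 and 0.0042 at day 14, so arrays were likely centred before deposit. No intensities were at hand. Values were multiplied by 3.322 to give log2. Of 22393 probes, 18218 carried 1 gene symbol in the platform annotation, 16 several and 4159 none. Probes of a gene were averaged (16504 genes in all), and 5 of the measured members had a pair of probes.

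The model, run with limma 3.58.1 under R 4.3.3 on all genes and 8 arrays, held day means and a common dye effect, and p-values were adjusted by Benjamini-Hochberg over all genes. Alternatives covered the arrays of 1 day alone, dye term, array weights, turned arrays, centring, scaling, single probes, array number as block and each array left out. The fit was tested on simulated data. Array numbers were not taken to pair the arrays. After the dye term, same-numbered arrays of the 2 days correlated across genes at −0.65, −0.47, −0.34 and 0.14. Without that term, the deviations from the day mean correlated at 0.39, 0.64, 0.36 and 0.50. Neither set can decide on a pairing. The common dye effect forces residuals of the 2 days to oppose each other, and same-numbered arrays share a dye orientation.

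The members and lists were chosen with earlier results of these data known. Every measured member is named. Array values are given in full for members with an unadjusted p under 0.05 on either day or for their difference, or an adjusted p under 0.05 in the fit of 1 day, and for Casp8, Casp9, Bcl2, Bcl2l1, Mcl1, Bak1, Apaf1 and Fas. Diablo and Bnip3 were added after their values were seen. From each other list up to 6 genes with the smallest p at day 14 are named. Figures were drawn with matplotlib 3.10.9.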

Additional observations from a re-analysis of the deposited data

Results flagged for a closer look

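In 6 of 72 groups of 4 arrays (36 genes on 2 days), 1 array lay far from the other 3 by Dixon's criterion, which chance alone passes for about 5% of groups. At day 5, Diablo read 2.31 and Apaf1 −0.57 on array 3, the array with the testis transcripts, and Bcl2 read 0.99 on array 4. At day 14, Bnip3 read −1.51 on array 3, and Casp6 read −0.60 and Pmaip1 −0.81 on array 4. Xiap lay below 0 on all day 5 arrays and above 0 on all day 14 arrays, a difference of 0.34 between the days (limma, unadjusted p = 0.034, adjusted p = 0.892). This holds for the mean of its 2 probes only. One probe read 0.53 on day 5 array 3, and the other read −0.11 on day 14 array 2.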

How the results depend on the processing

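Of the values recomputed for 14 genes under the alternatives, 864 kept their side of an unadjusted p of 0.05, 64 lost it, 33 gained it and 13 changed direction with a p under it before or after, all of the last with arrays 3 and 4 turned. Sign changes between values that both missed it are not among the 13: over all 36 genes, leaving out day 5 array 3 changed the sign of 9 day 5 ratios, and turning arrays 3 and 4 that of 28 at day 5 and 22 at day 14. Turned, the genes called were 6 at day 5 and 4 at day 14, against 2140 and 2089 of all genes. Those with an unadjusted p under 0.05 were 12 at day 5, 7 above and 5 below 0, against 33.2% of all genes. At day 14 they were 10, 4 of them below 0, against 31.8%. Among the 14 genes, with that p before or after turning, ratios turned at day 5 for Casp9 (−0.70), Bcl2l1 (−0.74), Bcl2l10 (0.85), Bak1 (−0.78) and Bbc3 (−0.36). At day 14 they turned for Casp9 (−1.10), Bcl2l1 (−0.57), Bcl2l2 (0.11), Bcl2l10 (0.90), Bbc3 (−0.54) and Xiap (−0.22). Once turned, Bcl2l2 and Xiap no longer had such a p at day 14 (limma, unadjusted p = 0.62 and 0.087). The differences between the days turned for Bcl2l1 (0.17) and Xiap (−0.24), neither with such a p once turned. Array weights gave 4 called genes at day 14, against 584 of all genes. With an unadjusted p under 0.05 there were 11, 5 of them below 0, against 20.9% of all genes. With no dye term, genes with such a p were 0 above and 1 below at day 5 (1.71% of all genes). At day 14 they were 1 above and 1 below (4.18%). Scaling the arrays to 1 spread left 3 at day 5, 0 of them above (6.54%). With day 14 alone there were 9, 4 of them below (19.1%). The cause was not tested. With 1 array left out of the fit of all arrays, 0 of the 36 genes were called. Genes with an unadjusted p under 0.05 then ran from 1 to 2 above and 2 to 11 below at day 5. The share of all genes with such a p ran from 7.44% to 25.3%. Both 11 and 25.3% were reached without day 5 array 4. At day 14 the counts ran from 1 to 6 above and 1 to 4 below, against 5.42% to 15.1% of all genes. In fits added after seeing the data, day 5 alone without array 3 had 2 above and 1 below, against 8.43% of all genes. Also added then, day 14 alone with 1 array left out had 0 to 1 called, against 1 to 156 of all genes. With an unadjusted p under 0.05 there were 7 to 11, 3 to 7 of them below, against 12.4% to 19.3% of all genes. The weighted fit without 1 day 14 array had 0 to 8 called at day 14, against 177 to 1497 of all genes. There, 9 to 14 had such a p, 4 to 9 of them below, against 19.3% to 27.3% of all genes. At day 5 the weighted fit had 0 to 1 above and 1 to 6 below, against 6.6% to 20.8% of all genes. The weights did not converge without day 14 array 1. With the array number as a replicate block, 0 genes were called in any comparison. An unadjusted p under 0.05 was reached by 4 genes at day 5, 6 at day 14 and 0 for the difference. The shares of all genes with such a p were 11.2%, 8.43% and 2.81%. Ratios without intensities leave signal over background unknown.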
